A study of Mus musculus with 2 samples.

Results

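The genes described here encode the direct targets of the 3 small molecules in a reprogramming cocktail, with the transcription factor downstream of 1 of them. They are the class I histone deacetylases Hdac1, Hdac2, Hdac3 and Hdac8 (valproic acid, VPA), the kinases Gsk3a and Gsk3b (lithium), the adenylyl cyclases Adcy3, Adcy6 and Adcy9 (forskolin, FSK) and Creb1. The 10 were chosen by symbol from the known targets of the drugs, among 31053 genes in the deposited matrices, and all 10 had at least 20 UMIs (unique transcript molecules) in the libraries together.

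Cochlear explants of adult C57BL/6J mice, wild type and 4 to 6 weeks old, were cultured whole, and cells of the sensory epithelium were captured in droplets to give 2 libraries of 3′ single-cell RNA. The cocktail group received VPA (1.5 mM), LiCl (8 mM), FSK (20 µM), siFIR and siMxi1 (0.02 µM each) for 4 days. The vehicle group received sterile water with 0.1% DMSO for the same 4 days. Both groups then received ad.Atoh1, an adenovirus that overexpresses the hair cell factor Atoh1, for 2 weeks, so the drugs were last added well before the RNA was taken and a level measured here is that of the late culture. Each library pooled 5 cultures whose cells were not told apart here, so each group is 1 library, no test of the treatment is possible, and every interval (95%) covers counting error only. In sums over a library, fewer cells of a type and less RNA per cell cannot be told apart.

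Class I histone deacetylases remove acetyl groups from histone tails within repressive complexes. Hdac1 and Hdac2 share the Sin3, NuRD and CoREST complexes, Hdac3 works with the NCoR and SMRT corepressors, and Hdac8 acts outside these complexes. Gsk3a and Gsk3b phosphorylate β-catenin and mark it for destruction, and lithium inhibits them, which raises Wnt signalling. Adenylyl cyclases make cAMP, forskolin activates the transmembrane ones directly, Adcy9 responds to it weakly and the soluble cyclase Adcy10 does not respond. The cAMP made activates protein kinase A, which phosphorylates CREB (encoded by Creb1), a factor that binds the cAMP response element (CRE). Valproic acid, lithium and forskolin act on proteins, so a transcript level shows where a target is made and not whether it was inhibited or activated.

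By GENCODE M21 (GRCm38), Hdac1 lies on chromosome 4 (129516104 to 129542713), Hdac2 on 10 (36974544 to 37001889), Hdac3 on 18 (37935844 to 37955016) and Hdac8 on X (102284639 to 102505359). Gsk3a lies on chromosome 7 (25228258 to 25237851) and Gsk3b on 16 (38089001 to 38246084). Adcy3 lies on chromosome 12 (4133103 to 4213525), Adcy6 on 15 (98589973 to 98610076), Adcy9 on 16 (4287529 to 4420498) and Creb1 on 1 (64532645 to 64604548). Exons of Gsk3a, Adcy3 and Adcy6 overlap exons of a counted gene on the opposite strand (9130221H12Rik, Cenpo and Gm29331), and whether the counting used strand is not given in the sources used here.

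Because the cascade that forskolin starts ends on the CRE, the promoters of the genes themselves were searched for it (RefSeq starts, GRCm38.p6, 250 bases before to 50 after a start, both strands). The full palindrome TGACGTCA was in 0 of the 8 promoters matched to 7 of the genes and in 1.79% of all 32851 promoters, and the E-box CACGTG was in 0 of 8 and in 7.15%. The shorter core TGACG was in 2 of 8 and in 20.8% of all promoters. Both follow as the 250 bases before the start, with the core in capitals. In Gsk3a (minus strand, chr7:25237852-25238101) it reads as its reverse complement CGTCA and begins 78 bases before the start, and in Adcy9 (minus strand, chr16:4420499-4420748) it begins 24 bases before. A match is a stretch of letters and not a bound site.
Gsk3a: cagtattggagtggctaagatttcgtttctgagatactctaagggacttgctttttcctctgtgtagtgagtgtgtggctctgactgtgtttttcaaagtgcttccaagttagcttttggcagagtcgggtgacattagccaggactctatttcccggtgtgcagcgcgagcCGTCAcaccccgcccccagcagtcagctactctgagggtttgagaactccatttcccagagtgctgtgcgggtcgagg
Adcy9: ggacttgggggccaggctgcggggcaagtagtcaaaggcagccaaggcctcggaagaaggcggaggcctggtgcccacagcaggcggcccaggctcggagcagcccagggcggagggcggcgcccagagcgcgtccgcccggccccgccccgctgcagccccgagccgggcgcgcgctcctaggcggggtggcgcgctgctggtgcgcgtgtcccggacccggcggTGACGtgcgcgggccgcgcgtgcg

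After filtering, 1329 cocktail cells with 19531019 UMIs and 1582 vehicle cells with 22974367 UMIs remained, and the libraries shared 0 barcodes. The median cell held 10391 and 12267 UMIs. Clustering gave 27 clusters, which fell into 22 classes, either named from markers or left as numbered clusters. Cluster 11 (25 cocktail and 82 vehicle cells) had 4 of the 7 interdental or inner sulcus markers, as many as the 2 clusters given that name. It was kept apart because Ceacam16 was not among its leading genes, a choice made with the clusters known, and results that turn on it are given both ways. Of these, 7 had at least 50 cells in each library. They were the Gal- and Cck-high epithelial cells (452 cocktail and 327 vehicle cells), interdental- or inner-sulcus-like epithelial cells (202 and 136), fibroblast-like cells (157 and 153), cluster 2 (led by Opcml and Mfap4, 59 and 121), cluster 3 (Epcam-positive, led by Mpv17l and Slc8b1, 95 and 84), cluster 4 (led by Lcn2 and Gpx3, 69 and 103) and cluster 8 (led by Sirt1 and P2rx7, 53 and 98). The makeup differed: glia-like cells numbered 28 and 116, osteoblast-like cells 1 and 56, and hair-cell-like cells 9 and 37. The labels name sensory epithelium, and the hair-cell-like cluster had all 12 of its 12 markers, but fibroblast-like, glia-like and osteoblast-like cells were also present. Creb1 was the only one of the 10 among the variable genes, and it was left out of the clustering, so the classes do not rest on the genes described. A level by class is a description without a test.

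In the whole libraries most of the 10 genes were nearly level, while the counting intervals of Hdac3, Adcy6 and Adcy9 excluded 0. The share of all genes whose whole-library interval excludes 0 was not computed. These 3 genes are therefore not read as set apart from other genes. Levels are UMIs of the gene per 1000000 UMIs (CPM) and differences are log2 ratios of cocktail over vehicle. Of 17259 genes with at least 20 UMIs, 9.31% were past 0.5 and 12.7% were past -0.5. Of the 10 drug target genes, 0 were past either, and their median was 0.01, against -0.03 over all genes. For 10 genes, 0 is near that background.

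Hdac1 stood at 57.7 CPM in the cocktail library, against 53.8 with vehicle (log2 ratio 0.10, -0.02 to 0.22). Hdac2, its close relative, stood at 61.0 and 58.7 CPM (0.06, -0.06 to 0.17). Hdac8 stood at 43.3 and 44.6 CPM (-0.04, -0.18 to 0.09). The intervals of these 3 deacetylases include 0. Hdac3 stood at 60.3 and 52.9 CPM, and its ratio of 0.19 (0.07 to 0.30) lies above 0. It was 0.03 when the 7 classes above were weighted alike in both libraries, and interdental- or inner-sulcus-like cells, where the gene was high, held 116 and 115 CPM.

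For the lithium targets, Gsk3a stood at 54.9 and 55.1 CPM (-0.01, -0.12 to 0.11). Gsk3b had the most UMIs of the 10 genes, 4312 and 5010, and stood at 221 and 218 CPM (0.02, -0.04 to 0.08). Its counting interval is the narrowest of the 10.

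Among the forskolin targets, Adcy3 stood at 6.76 and 6.83 CPM (-0.02, -0.36 to 0.33). Adcy6 was lower in the cocktail library, at 10.0 against 12.6 CPM (-0.33, -0.60 to -0.06). Adcy9 was lower too, at 18.0 against 24.0 CPM (-0.41, -0.61 to -0.22). Both intervals lie below 0 and neither ratio is past -0.5. With classes weighted alike, Adcy6 was at -0.54 and Adcy9 at -0.58. That weighting includes cluster 3, where 3 of 84 vehicle cells held 53 of 90 Adcy9 UMIs. Without clusters 3 and 8, which hold cells with extreme counts of single genes, Adcy9 was at -0.20. Creb1 stood at 33.9 and 32.4 CPM (0.06, -0.09 to 0.22).

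**Figure D1:**
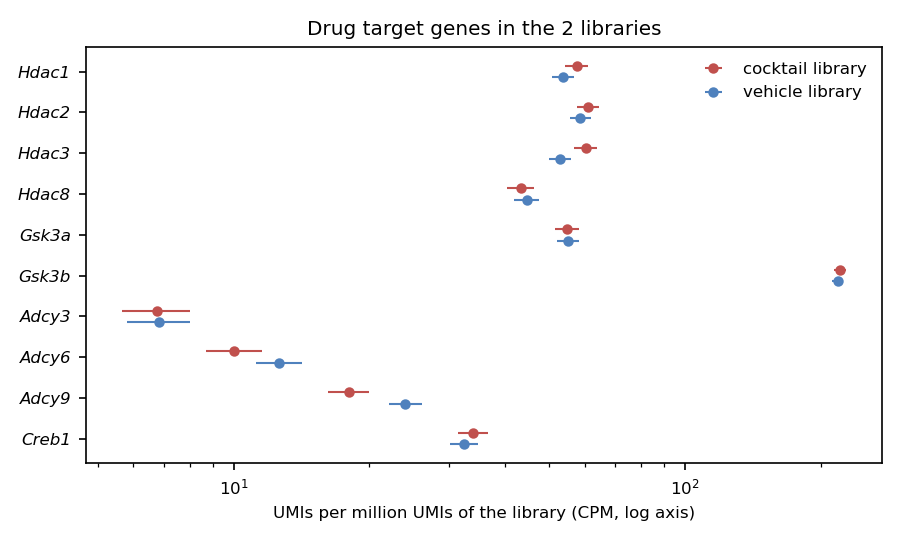
Level of each drug target gene in the cocktail (red) and vehicle (blue) library, in CPM on a log axis, with 95% counting intervals. The intervals of the 2 libraries lie apart for Hdac3, higher in cocktail, and for Adcy9, lower in cocktail, and Gsk3b sits at 221 and 218 CPM.

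Of the deacetylases, Hdac3 differed most in level between interdental- or inner-sulcus-like and fibroblast-like cells. It was highest in hair-cell-like cells, at 158 CPM (130 to 191). The cocktail library had 218 CPM (30 UMIs, 21 of them in 3 of 9 cells) and the vehicle library 143 (77 UMIs). In the vehicle library the interval (113 to 179) overlaps that of interdental- or inner-sulcus-like cells (97.3 to 136). Hdac3 was next highest in interdental- or inner-sulcus-like cells, at 116 CPM (106 to 127), or 103 (94.8 to 111) with cluster 11 counted among them. The epithelial clusters 15 (led by Wfdc18 and Epyc) and 11 (led by Vmo1 and Tecta) followed at 85.3 and 79.0 CPM, with overlapping intervals, and Gal- and Cck-high cells stood at 63.4. Fibroblast-like cells stood at 36.1 CPM, glia-like cells at 29.7 and cluster 2 at 28.9. Endothelial-like cells, all from the vehicle library, had 2 Hdac3 UMIs (5.53 CPM, 0.67 to 20.0). The classes above 60 CPM were epithelial, but other Epcam-positive clusters were lower. Clusters 4, 21 and 8, each above 300 CPM of Epcam, stood at 58.7, 53.9 and 41.5 CPM. Cluster 3, with 384 CPM of Epcam over its 179 cells, stood at 28.8 CPM of Hdac3, as low as cluster 2. In a finer clustering the cluster led by Mpv17l had 130 cells and 704 CPM of Epcam. Cluster 3 may therefore pool cells with and without Epcam, and it is not counted as an epithelial exception. Cluster 12, with 0 CPM of Epcam, stood at 58.2 (25.1 to 115, 8 UMIs).

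The contrast was alike in the libraries. Against fibroblast-like cells, interdental- or inner-sulcus-like cells had a log2 ratio for Hdac3 of 1.63 (1.32 to 1.95) in the cocktail library and 1.75 (1.36 to 2.14) in the vehicle library. By this contrast, 10.8% of 10919 genes were past 1 in both libraries and 16.1% were past -1. In cells with at least 5000 UMIs the Hdac3 values were 1.69 and 1.78 (10.9% of genes past 1 and 15.8% past -1). With cluster 11 counted in the class they were 1.52 and 1.50. Gal- and Cck-high cells against fibroblast-like cells gave 0.78 (0.48 to 1.08) and 0.85 (0.51 to 1.21), both under 1, where 20.2% of 12768 genes were past 1 and 13.1% past -1 (20.4% and 12.9% in cells with at least 5000 UMIs). For interdental- or inner-sulcus-like against fibroblast-like cells, 1 of the 10 genes was past 1 in both libraries (Hdac3) and 1 past -1 (Adcy3). For Gal- and Cck-high against fibroblast-like cells, 0 were past either in both.

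Hdac1 and Hdac2 divided the cells differently. Over all cells Hdac1 made up 48.2% of the Hdac1 and Hdac2 UMIs (46.8 to 49.6), as 3′ molecules not divided by transcript length. In neuron-like cells its share was 5.1% (1.7 to 11.4). The 5 neuron-like cells of the cocktail library held 0 Hdac1 and 26 Hdac2 UMIs, and the 15 of the vehicle library held 5 and 68. These were the deepest cells, with median depths of 71073 and 52588 UMIs. As a level, neuron-like Hdac1 was 4.54 CPM (1.47 to 10.6), far under its other classes of at least 20 cells except cluster 12 (21.8, 3 UMIs), and Hdac2 was 85.4 (69.0 to 105), so the low share came with low Hdac1. A class with a fuller set of cells, Gal- and Cck-high, had a share of 40.5% (37.7 to 43.3), and fibroblast-like cells had 54.2% (50.5 to 57.9). Cluster 3 had 70.3% (65.2 to 75.1), with 87.0 CPM of Hdac1 and 36.7 of Hdac2. In that cluster 30 of the 153 cocktail Hdac1 UMIs came from 1 cell. Fibroblast-like cells had more Hdac1 than Gal- and Cck-high cells in both libraries (67.3 against 45.8 CPM in cocktail and 66.0 against 45.9 in vehicle).

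The cycling epithelial cluster, led by Top2a and Cdk1, had 93.4 CPM of Hdac2 (74.4 to 116) and 79.9 of Hdac1 (62.4 to 101). Hdac2 was also high in hair-cell-like cells, at 79.8 CPM (59.9 to 104). The intervals of these classes overlap, and no order among them is read. Across the 11 classes with at least 20 cells in each library, Hdac2 spanned 1.91-fold from lowest to highest, Hdac1 2.83-fold and Hdac3 4.04-fold. Hdac8 spanned 31.0-fold, but its low end was 1 UMI in cluster 4. The next lowest class for Hdac8 was cluster 8, at 16.6 CPM from 8 UMIs, so its range is not ranked against the others.

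Hdac8 was highest, among those 11 classes, in Gal- and Cck-high cells at 55.3 CPM (50.9 to 59.9). Fibroblast-like cells stood at 49.5 (43.9 to 55.6), an overlapping interval. Classes outside those 11 stood higher: cycling epithelial cells at 72.0 (53.2 without their highest cell), supporting-cell-like at 67.9 and hair-cell-like at 65.0. Cluster 17 stood at 60.6 and osteoblast-like cells at 56.9, and the intervals of all these classes overlap that of the Gal- and Cck-high cells. Interdental- or inner-sulcus-like cells had 29.0 CPM (23.9 to 34.9), below fibroblast-like cells in both libraries (30.2 against 50.5 and 26.4 against 48.2 CPM). Cluster 4 was lowest, with 1 Hdac8 UMI in 172 cells (1.78 CPM, 0.045 to 9.92). Hdac8 and Hdac3 ran in opposite directions between interdental- or inner-sulcus-like and fibroblast-like cells. In Gal- and Cck-high cells with 500 to 5000 UMIs Hdac8 was 14.5 and 26.9 CPM (cocktail and vehicle), and in those with at least 20000 it was 56.4 and 66.6. Interdental- or inner-sulcus-like cells of the same depths had 31.0 and 27.4 CPM, then 31.5 and 33.0. Fibroblast-like cells had 58.4 and 50.4 CPM at 5000 to 20000 UMIs, and 45.9 and 45.7 at 20000 or more. The clusters within each of these classes differ in depth, so depth and cluster cannot be told apart. The median cells of cluster 4 held 2017 and 3115 UMIs, and its cells with at least 5000 UMIs had 3.88 CPM of Hdac8 (1 UMI).

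**Figure D2:**
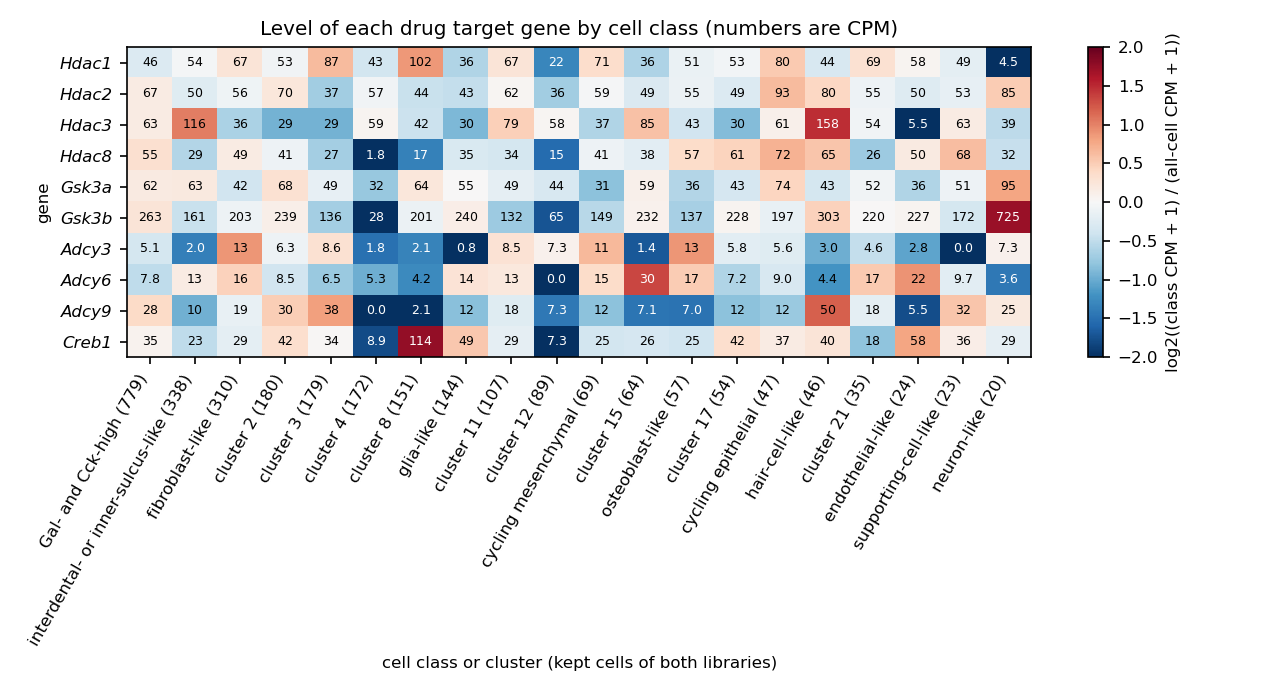
Level of each of the 10 genes in the 20 classes or clusters with at least 20 cells. Numbers are CPM and the colour is log2 of class CPM plus 1 over all-cell CPM plus 1. Neuron-like Gsk3b (725) and neuron-like Hdac1 (4.5) stand apart from the rest of their rows, hair-cell-like Hdac3 (158) is the highest of its row, and cluster 4 is low in most rows.

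Gsk3b was highest in neuron-like cells, at 725 CPM (676 to 777), from 213 UMIs in the cocktail library (668 CPM) and 585 in the vehicle library (748 CPM). Its highest cell held 80 of these UMIs and the level was 693 CPM without that cell. Hair-cell-like cells followed at 303 CPM (263 to 347), with 341 and 293 in the libraries. Gal- and Cck-high cells had 263 CPM (254 to 273), glia-like cells 240, cluster 2 239 and fibroblast-like cells 203. Interdental- or inner-sulcus-like cells had 161 CPM (149 to 174). The neuron-like level lay above the interval of every other class with at least 20 cells. Gsk3b was lower in interdental- or inner-sulcus-like than in fibroblast-like cells in both libraries, with log2 ratios of -0.32 (-0.50 to -0.15) and -0.37 (-0.62 to -0.13), and higher in Gal- and Cck-high than in fibroblast-like cells, at 0.40 (0.27 to 0.53) and 0.33 (0.18 to 0.48).

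Over the 11 classes Gsk3b spanned 9.24-fold, but its low end was cluster 4, at 28.5 CPM from 16 UMIs. Its next lowest class was cluster 11, at 132 CPM. With only cells of at least 5000 UMIs, Gsk3b spanned 7.75-fold and Gsk3a 6.46-fold, both with cluster 4 lowest. The pair is therefore not ranked by range. With all cells, Gsk3a spanned 2.22-fold, with cycling mesenchymal cells lowest at 30.8 CPM. It was 95.4 CPM (78.0 to 115) in neuron-like cells, 68.1 in cluster 2, 63.1 in interdental- or inner-sulcus-like cells, 62.2 in Gal- and Cck-high cells and 41.8 in fibroblast-like cells. Gsk3b made up 79.9% of the UMIs of the pair over all cells (79.2 to 80.7), 88.4% in neuron-like cells (86.1 to 90.4), 87.6% in hair-cell-like cells (82.7 to 91.5) and 71.9% in the interdental- or inner-sulcus-like cells (68.8 to 74.8). The low share in the last class went with low Gsk3b and with Gsk3a at the level of the Gal- and Cck-high cells. In Gal- and Cck-high cells of 500 to 5000 UMIs Gsk3b was 157 and 85.2 CPM, and in those of at least 20000 it was 281 and 270. Interdental- or inner-sulcus-like cells went the same way, from 80.5 and 128 to 171 and 189 CPM. Fibroblast-like cells went the other way, from 265 and 241 CPM at 5000 to 20000 UMIs to 178 and 164 at 20000 or more. The clusters within each of these classes differ in depth, so depth and cluster cannot be told apart. Fibroblast-like clusters 9 and 7 had median depths of 11482 and 23849 UMIs and 262 and 176 CPM of Gsk3b. Interdental- or inner-sulcus-like clusters 5 and 6 had median depths of 3607 and 17626.5 UMIs and 83.3 and 192 CPM.

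The 3 cyclases had the fewest UMIs of the 10 genes. Adcy3 was 13.4 CPM (10.6 to 16.7) in fibroblast-like cells, 13.4 in osteoblast-like cells (8.31 to 20.5) and 11.2 in cycling mesenchymal cells. It was 2.04 CPM in interdental- or inner-sulcus-like cells (8 UMIs) and 0.82 in glia-like cells (1 UMI). Interdental- or inner-sulcus-like against fibroblast-like cells gave log2 ratios of -2.96 (-4.65 to -1.64) in cocktail and -2.33 (-4.68 to -0.65) in vehicle. With cluster 11 counted in the class, the level was 4.38 CPM and the ratios were -1.87 and -1.32. Adcy6 was 30.3 CPM (21.9 to 40.8) in cluster 15, 16.2 in fibroblast-like cells, 13.0 in interdental- or inner-sulcus-like cells and 7.76 in Gal- and Cck-high cells. Adcy9 was 50.2 CPM (34.8 to 70.2) in hair-cell-like cells, 30.3 in cluster 2, 27.9 in Gal- and Cck-high cells, 19.1 in fibroblast-like cells and 10.4 in the interdental- or inner-sulcus-like cells. Its 38.5 CPM in cluster 3 pools 10.9 in cocktail with 74.0 in vehicle. In the vehicle part, 3 of 84 cells held 53 of 90 UMIs.

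The Gal- and Cck-high class is 4 clusters, and the drug targets differed among them. Cluster 18 (53 cells, led by Gpr83 and Dpp6, with Otof among its leading genes) had 98.8 CPM of Adcy9 (81.9 to 118), against 22.6 (19.4 to 26.2) in cluster 0, the largest (329 cells, led by Sntg1 and Hsd11b2). The median cells of these clusters were of like depth, 22699 and 23362 UMIs. The difference was in both libraries, 92.7 against 20.6 CPM in cocktail and 104 against 25.5 in vehicle, and the intervals do not overlap. Cluster 18 also had more Gsk3b (355 against 289 CPM), Hdac8 (87.2 against 61.0) and Creb1 (56.5 against 37.0), with intervals apart. It had less Hdac3 (34.0 against 66.4) and less Hdac2 (42.3 against 76.8), again with intervals apart. Hdac1, at 34.0 against 50.0, had overlapping intervals, as did Gsk3a, Adcy3 and Adcy6. Clusters 1 and 13, of median depths 1738 and 7037 UMIs, had 97.9 and 83.2 CPM of Gsk3b and 2.65 and 5.74 of Adcy9.

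Set among all 10 cyclases, which together had 4620 UMIs, the 3 genes made up a minority. Adcy2, a cyclase stimulated by G protein βγ subunits, made up 32.5% over all cells, Adcy9 19.6%, Adcy6 10.5% and Adcy3 6.26%. Adcy10 had 7.99%, Adcy7 7.88%, Adcy1 7.36%, Adcy5 4.05%, Adcy8 2.45% and Adcy4 1.45%. The makeup differed between classes. Fibroblast-like cells had 45.2% Adcy2, supporting-cell-like cells 66.7% (36 of 54 UMIs) and interdental- or inner-sulcus-like cells 3.87%, where Adcy6 made up 32.9% and Adcy9 26.5%.

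In hair-cell-like cells Adcy8, a calcium-stimulated cyclase, made up 38.5% (65 of 169 UMIs). Its level was 96.0 CPM there (123 in cocktail and 89.1 in vehicle), against 0.28 CPM in Gal- and Cck-high cells and 0.52 in fibroblast-like cells. Adcy9 made up 20.1% and Adcy1, also calcium-stimulated, 12.4% of the hair-cell-like cyclase UMIs. Neuron-like cells had 37.8% Adcy1 (37 of 98 UMIs) and 27.6% Adcy9. Endothelial-like cells had 45.2% Adcy4 (14 of 31 UMIs). Adcy10, which forskolin does not activate, made up 18.7% in Gal- and Cck-high cells (216 UMIs, 20.0 CPM) and 2.22% in fibroblast-like cells.

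**Figure D3:**
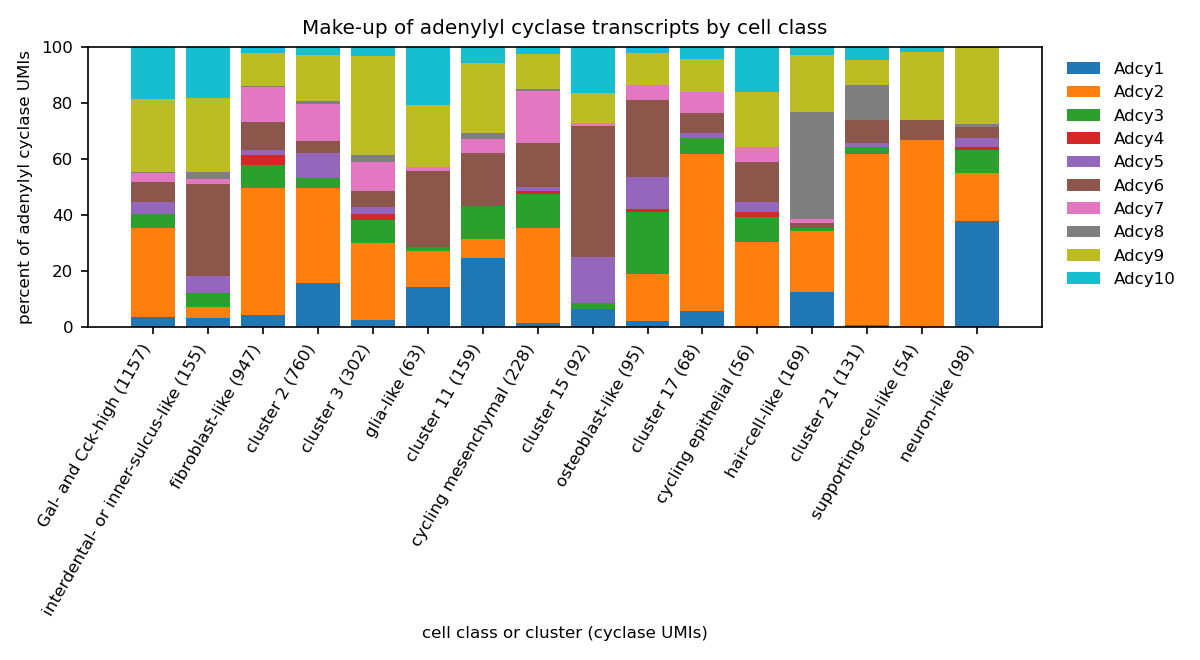
Share of each cyclase (percent of cyclase UMIs, both libraries) in the classes with at least 50 cyclase UMIs, whose number is in brackets. Adcy8 is wide in hair-cell-like cells (38.5%), Adcy2 in fibroblast-like cells (45.2%), and Adcy6 in interdental- or inner-sulcus-like cells (32.9%) and cluster 15 (46.7%).

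Creb1 differed between classes. It was 34.8 CPM (31.4 to 38.5) in Gal- and Cck-high cells, 28.7 in fibroblast-like cells, 42.2 in cluster 2, 48.6 in glia-like cells (37.0 to 62.7) and 22.9 in the interdental- or inner-sulcus-like cells (18.4 to 28.2). The last 2 intervals do not overlap. Cluster 4 was lower still, at 8.90 CPM (2.89 to 20.8) from 5 UMIs. In cluster 8 it was 114 CPM, but 38 of its 55 UMIs came from 1 cocktail cell, and the level was 35.4 CPM without that cell.

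Within classes the ratio of cocktail over vehicle could be computed for 57 pairs of a gene and a class with at least 20 UMIs, in the 7 classes with enough cells. It was past 0.5 in 5 and past -0.5 in 7. The interval lay above 0 in 5 pairs and below 0 in 3. Over the 63375 pairs of any gene and a class with as many UMIs, 9.4% of intervals lay above 0 and 10.8% below, so 5 of 57 is near that background and 3 of 57 is under it. Among all genes, the share past 0.5 ran from 7.34% in interdental- or inner-sulcus-like cells to 20.2% in cluster 8, and the share past -0.5 from 9.67% in Gal- and Cck-high cells to 27.7% in cluster 8.

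In Gal- and Cck-high cells, with 7.87% of 13543 genes past 0.5 and 9.67% past -0.5, 0 of the 10 genes were past 0.5 and 2 were past -0.5. These were Adcy3, 4.02 against 6.53 CPM (-0.70, -1.53 to 0.11), and Adcy6, 6.26 against 9.79 CPM (-0.64, -1.30 to 0.01). Both intervals include 0. Adcy9 was 24.6 against 32.4 CPM (-0.40, -0.74 to -0.07) and Gsk3a was 55.1 against 71.8 CPM (-0.38, -0.61 to -0.16), with intervals below 0. Over all genes in this class, 11.1% of intervals lay below 0 and 10.6% above. In the same cells Gsk3b was 271 against 253 CPM (0.10, -0.01 to 0.21), Hdac1 45.8 against 45.9 CPM, Hdac2 at 0.04 and Hdac3 at 0.05. The median depth of these cells was 8136 UMIs in cocktail and 12289 in vehicle, and in cells with at least 5000 UMIs the ratios were -0.39 for Adcy9 and -0.38 for Gsk3a. Cluster 18, the Adcy9-rich part, held 24 of the cocktail and 29 of the vehicle cells. Within it Adcy9 was at -0.17 (-0.72 to 0.37), and within cluster 0 at -0.31 (-0.75 to 0.14), both with intervals that include 0. Within cluster 0, Adcy6 was at -0.76 (-1.46 to -0.07), Gsk3a at -0.30 (-0.56 to -0.03) and Hdac8 at -0.30 (-0.56 to -0.03). In the whole class the Gsk3a interval lies below 0, but those of Adcy6 and Hdac8 include 0. Within cluster 18 Gsk3a was at -0.93 (-1.63 to -0.26). Gsk3b was at 0.90 (0.29 to 1.54) within cluster 1, whose median cells held 1306 and 2490 UMIs. Values by cluster were computed after the class values were seen. All 10 genes were looked at in the 4 clusters, and those named are Adcy9 and the ones whose interval excludes 0. The share of all genes with such an interval was not computed within these clusters, so the named values have no background beside them.

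Of the 7 classes with enough cells, Adcy6 had at least 20 UMIs in 4 and was below 0 in each of them. The ratios ran from -0.70 in interdental- or inner-sulcus-like cells to -0.38 in fibroblast-like cells, and each interval includes 0. Outside the 7, Adcy6 was higher in cocktail in cluster 11 (23.4 against 9.75 CPM, from 14 and 16 UMIs). It was lower in cycling mesenchymal cells (12.3 against 17.7 CPM). In interdental- or inner-sulcus-like cells (7.34% of genes past 0.5 and 14% past -0.5, with 1 of the drug target genes past each) it was 10.8 against 17.6 CPM (-1.55 to 0.17). Creb1 was higher there, 26.5 against 15.2 CPM (0.80, 0.05 to 1.61), from 71 and 19 UMIs. It was 0.39 as a mean over cells. Both values turn on the makeup of the class: with cluster 11 counted in it, Adcy6 was at 0.00 (-0.67 to 0.67) and Creb1 at 0.25 (-0.23 to 0.73), and 0 of the 10 genes were past 0.5 or -0.5. Hdac3 was 0.01 (-0.28 to 0.31) in this class and Gsk3b 0.08 (-0.17 to 0.33). In fibroblast-like cells (9.72% past 0.5 and 10.9% past -0.5), 0 of the 10 genes were past either, all 10 intervals included 0, and the ratios ran from -0.38 for Adcy6 to 0.27 for Adcy3. Gsk3b was 205 against 201 CPM (0.03, -0.14 to 0.20).

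In cluster 2, with 11.4% of genes past 0.5 and 9.81% past -0.5, 0 of the 10 genes were past either, and Gsk3b was 259 against 227 CPM (0.19, 0.00 to 0.38). In cluster 4 (12.1% and 19.7%), 1 gene was past each, Hdac2 (0.78, -0.33 to 1.87) and Hdac1 (-0.97, -2.74 to 0.50), with 15 and 5 cocktail UMIs. In cluster 3 (17.9% and 19.1%), 1 gene was past each, Hdac8 (0.55, from 49 and 26 UMIs) and Adcy9. In cluster 8 (20.2% and 27.7%), 2 were past each.

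The widest ratios were in clusters 3 and 8, which hold cells with extreme counts of single genes. Adcy9 in cluster 3 was 10.9 against 74.0 CPM (-2.77, -3.61 to -2.01), with the 3 vehicle cells named above. It was -2.54 without the highest cell of each library. Creb1 in cluster 8 was 317 against 37.2 CPM (3.09, 2.16 to 4.11), and leaving out the highest cell per library it was -0.19. Hdac1 in cluster 8 was 219 against 57.3 CPM (1.93, 1.06 to 2.83), from 29 and 20 UMIs, and 0.59 in cells with at least 5000 UMIs.

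**Figure D4:**
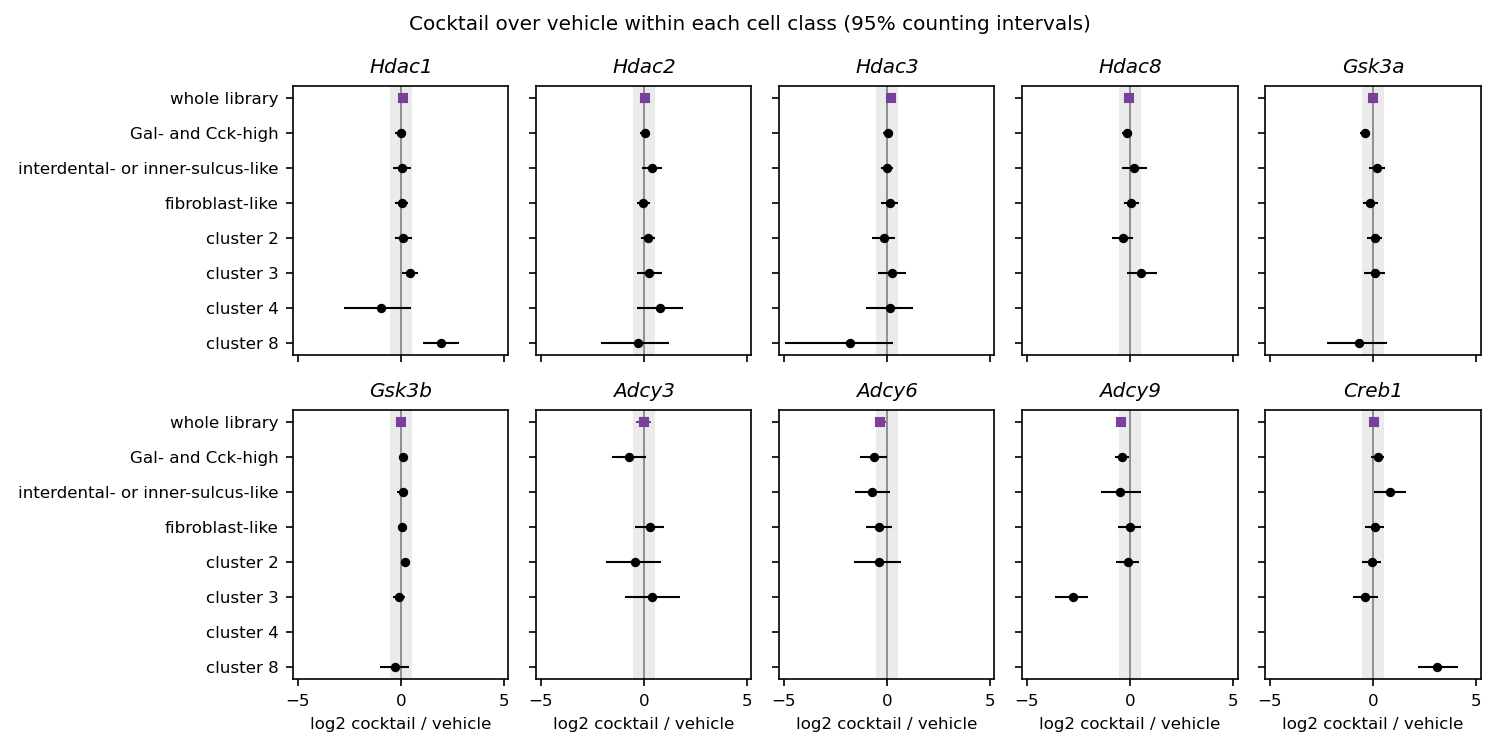
Log2 ratio of cocktail over vehicle for each gene in the whole library (square) and in classes (circles), with 95% counting intervals. Circles are shown for classes with at least 50 cells in each library where the gene had at least 20 UMIs. The grey band marks -0.5 to 0.5. The Hdac and Gsk3 points of the Gal- and Cck-high, interdental- or inner-sulcus-like and fibroblast-like classes and of cluster 2 lie in the band, those of clusters 3, 4 and 8 partly outside it, Adcy6 lies left of 0 in all 4 classes, and Adcy9 in cluster 3 (-2.77) and Creb1 in cluster 8 (3.09) lie farthest out.

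The genes around these targets were read from 10 lists of 99 genes. Of the 7 other zinc-dependent deacetylases, 1 was higher and 6 were lower, 0 were past 0.5 and 2 were past -0.5, with a median of -0.16. Hdac9, a class IIa deacetylase known from muscle and nerve, was 25.3 against 56.4 CPM (-1.16, -1.31 to -1.01). Within fibroblast-like cells, which held 838 of its UMIs, its ratio was -1.33 (-1.54 to -1.12), so the difference was as large within that class as in the library. Its ratio in Gal- and Cck-high cells was -0.26 (-0.75 to 0.24). Hdac10, a polyamine deacetylase, was 3.02 against 4.44 CPM (-0.56, -1.04 to -0.08). Of 7 sirtuins, 0 were past 0.5 and 1 was past -0.5: Sirt1 (-0.92), for which 376 of 1105 vehicle UMIs came from 1 cell, and which was -0.44 without the highest cells. Sirt2, a cytoplasmic tubulin deacetylase, was 152 against 117 CPM (0.38, 0.30 to 0.45).

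Among 27 subunits of the class I deacetylase complexes, 10 were higher and 17 lower, 0 were past 0.5 and 2 were past -0.5, and the median was -0.04. Chd3 of the NuRD complex was at 0.37 (0.27 to 0.47) and the demethylase Kdm1a of CoREST at 0.22 (0.14 to 0.30). Rcor2, a CoREST scaffold, was at -0.67 (-0.92 to -0.41). Mier1 was at -0.64, with 713 of 2439 vehicle UMIs in 1 cell, and at -0.19 without the highest cells. Of 10 histone acetyltransferases, 0 were past either threshold and the median was -0.05. Crebbp, a coactivator of CREB, was at -0.20 and at 0.02 without the highest cells.

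Around GSK3, 9 of 19 genes of the destruction complex and the Wnt effectors were higher and 10 lower, with 1 past each threshold and a median of -0.01. Frat2, which binds GSK3 and keeps it from axin, was 7.78 against 4.70 CPM (0.73, 0.36 to 1.10). It was highest among the larger classes in interdental- or inner-sulcus-like cells, at 24.2 CPM, where its ratio was 0.81 (0.08 to 1.60). Tcf7, a Wnt transcription factor, was 3.02 against 5.01 CPM (-0.73, -1.21 to -0.26) and was highest in osteoblast-like cells (33.2 CPM), of which the cocktail library had 1. Apc, the scaffold of the complex, was at -0.17 (-0.26 to -0.07). The 4 other phosphatases that lithium inhibits were at 0.13 (Impa1), -0.09 (Impa2), 0.06 (Bpnt1) and -0.49 (Inpp1, -0.75 to -0.23). Inpp1, which removes phosphate from inositol phosphates, was 79.8 CPM in hair-cell-like and 50.9 in neuron-like cells, and 7.39 in Gal- and Cck-high cells.

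Of the 7 other cyclases, 2 were higher and 5 lower, with 0 past 0.5, 1 past -0.5 and a median of -0.20. Adcy1 was 6.04 against 9.66 CPM (-0.68, -1.01 to -0.35), Adcy2 30.9 against 39.1 (-0.34, -0.49 to -0.19), and Adcy10 9.93 against 7.62 (0.38, 0.08 to 0.69). Adcy4 was at -0.24, Adcy5 at 0.25, Adcy7 at -0.02 and Adcy8 at -0.20, with intervals that include 0. Adcy2 was at -0.32 (-0.62 to -0.02) within Gal- and Cck-high cells and at -0.20 (-0.48 to 0.08) within fibroblast-like cells.

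Of 5 G protein subunits that act on cyclases, 0 were past 0.5 and 1 was past -0.5, with a median of 0.02. Gnai1, an inhibitory subunit, was 13.4 against 32.2 CPM (-1.26, -1.47 to -1.06). Its high classes were osteoblast-like (160 CPM), glia-like (150) and cluster 17 (149), which had 1, 28 and 2 cells in the cocktail library and 56, 116 and 52 in the vehicle library. Within fibroblast-like cells it was at 0.08 (-0.48 to 0.64) and within Gal- and Cck-high cells at 0.21 (-0.62 to 1.08). Gnai2 was at -0.20 and Gnai3 at 0.24.

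Of 8 cAMP effectors, 2 were higher and 6 lower, with 1 past 0.5, 3 past -0.5 and a median of -0.15. Prkar1a, a regulatory subunit of protein kinase A, was 281 against 221 CPM (0.34, 0.29 to 0.40). Within Gal- and Cck-high cells, its highest class (419 CPM), it was at 0.51 (0.42 to 0.60), and within fibroblast-like cells at 0.02 (-0.17 to 0.20). Prkar1b was at -0.76 (-0.97 to -0.54) and was highest in neuron-like cells (280 CPM), which held 71 of its 274 cocktail and 237 of its 544 vehicle UMIs. Within fibroblast-like cells it was at -0.03 (-0.62 to 0.57) and within Gal- and Cck-high cells at -0.08 (-0.71 to 0.56). The cAMP-activated exchange factor Rapgef3 was at 0.58, and at 0.39 without the highest cells. Its relative Rapgef4 was at -0.82, but 784 cocktail and 1231 vehicle UMIs came from 1 cell each, and it was at -1.06 without them. Of 5 CREB partners, 0 were past either threshold, with Crtc3 at -0.35 (-0.47 to -0.22), Atf1 at -0.18 (-0.33 to -0.03) and a median of -0.08.

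**Figure D5:**
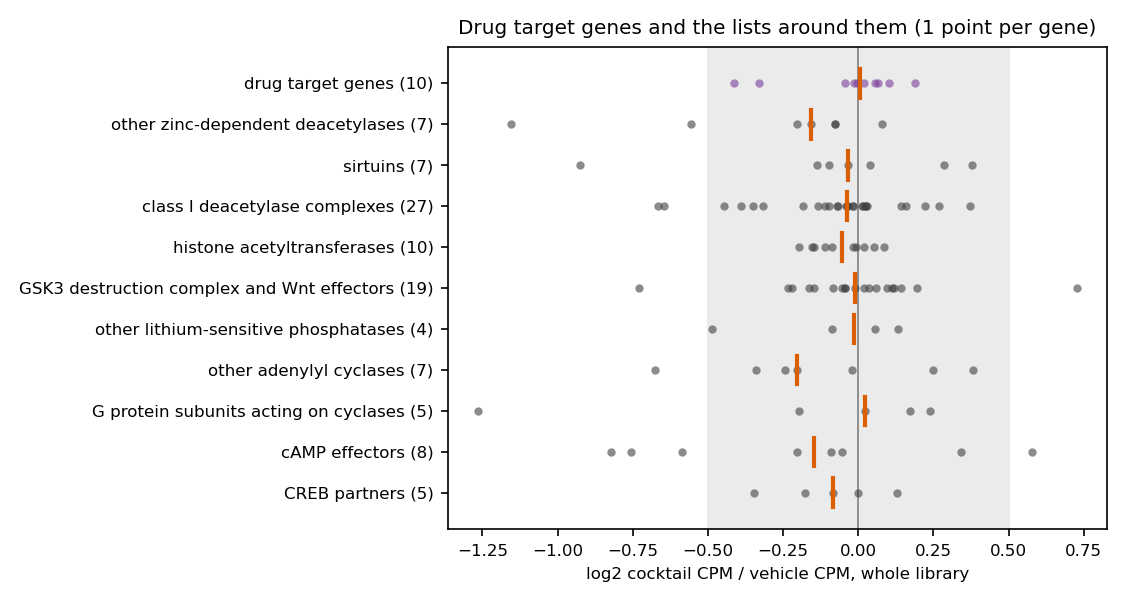
Log2 ratio of cocktail over vehicle in the whole library for each drug target gene (purple) and each gene of the 10 lists around them (grey), with the median as an orange bar. The grey band marks -0.5 to 0.5. All 10 drug target genes lie in the band, and Gnai1 (-1.26) and Hdac9 (-1.16) lie farthest left.

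By pattern over the 25 clusters with at least 20 cells (Pearson r of log2(CPM + 10), clusters sharing libraries and depths), the 2 genes most like each drug target were as follows. Hdac1 was most like Irf3 (0.75) and Nemp1 (0.75), and Hdac2 like Etaa1 (0.79) and Miga1 (0.72). Hdac3 was most like C1qtnf4 (0.82) and Hs3st6 (0.81), and Hdac8 like Luc7l2 (0.93) and Phf21a (0.92). Gsk3a was most like Btbd10 (0.77) and Ncdn (0.75), and Gsk3b like Akap11 (0.91) and Ktn1 (0.91). Adcy3 was most like Ankrd27 (0.81) and Trps1 (0.81), Adcy6 like Hdac7 (0.85) and Agrn (0.83), Adcy9 like Slc9a9 (0.84) and Rab11fip3 (0.83), and Creb1 like Slc39a9 (0.92) and Klhl28 (0.91). Between the drug targets the highest value was 0.72 for Hdac8 with Gsk3b and the lowest was -0.37 for Hdac3 with Creb1. Cluster depth moved with several of them: r with log2 median UMIs was 0.67 for Hdac8 and for Gsk3b, 0.55 for Adcy6 and for Adcy9, and -0.04 for Hdac1. The part of depth in these patterns was not tested.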

How the data were processed

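Single-cell RNA was measured in 2 libraries of mouse cochlear explants, 1 cocktail and 1 vehicle. The values deposited by the authors are raw UMI counts for each gene in each barcode. Per the file headers they come from Cell Ranger 5.0.0, and the submitters' processing notes name Cell Ranger 5.0, STAR, Seurat 3.2.2, mm10 and GRCm38, with no roles given. The counts are 3′ molecules, so levels were not divided by transcript length.

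Barcodes with at least 500 UMIs, 300 genes and at most 20% mitochondrial UMIs were kept, which removed 74 cocktail and 104 vehicle barcodes. Scrublet called 0 and 2 doublets, which were removed. Free RNA was not subtracted. Cells were clustered with scanpy 1.11.5 (2000 variable genes without the drug targets, 30 components, 15 neighbours, Leiden resolution 1.0, seed 0). A class took a name when over 50% of a marker list, at least 3 markers and 1 of its top 10 genes, were detected at 2 times the level elsewhere in at least 10% of its cells. Interdental- or inner-sulcus-like clusters also had to have Ceacam16 among their top 10 genes, which kept out cluster 11. A Gal- and Cck-high cluster reached 5000 CPM of Gal and 2000 of Cck, and epithelial ones 300 of Epcam.

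UMIs were summed per library and class and scaled per 1000000. Levels have exact Poisson intervals, log2 ratios exact conditional ones and shares Clopper-Pearson ones. Ratios and their intervals were tested on simulated data. The simulated sums followed the Poisson model that the intervals assume, without cells of extreme counts. The test therefore checks the computation and not the coverage in these cells. Always named were the 10 genes, the other cyclases and the other phosphatases. From each other list, up to 2 genes higher and 2 lower were named, by the interval bound nearest 0, and for likeness the first 2 genes with at least 200 UMIs. Adcy9, Hdac1 and Creb1 were examined by cell after their values were seen. The 10 genes and the lists were chosen with earlier results of these data known. Alternatives covered filters, depth, weighting, scaling, single cells and clustering.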

Additional observations from a re-analysis of the deposited data

How the results depend on the processing

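No paired analysis was possible because each group is 1 library. Results for the whole library and its lists moved by less than their counting interval in 200 of 214 alternative values, class ratios in 360 of 374 and class levels in 228 of 250. Part of these values could not move. The 10 values with no minimum of UMIs and the 10 with at least 50 UMIs were fixed in advance, since every list gene passed both. With classes weighted alike, the ratio was 0.33 for Creb1, -0.14 for Gsk3a, 0.079 for Gsk3b and 0.032 for Hdac3, and 2 genes were past -0.5. That weighting includes clusters 3 and 8, and in cluster 8 a single cocktail cell held 38 of the 42 cocktail Creb1 UMIs. Averaging CPM over cells gave 0.23 for Creb1, 0.29 for Hdac1 and -0.28 for Hdac8, the list medians were -0.33 (G protein subunits), -0.32 (cAMP effectors) and -0.34 (other zinc-dependent deacetylases), and 11 pairs of gene and class were past -0.5. Without the highest cell of each gene, 3 pairs were past 0.5 and Creb1 in cluster 8 was at -0.19. In cells with at least 5000 UMIs, Gsk3a in cluster 8 was at 0.30 against -0.66. Without clusters 3 and 8, an alternative chosen after seeing the data, as was the 5000-UMI minimum for class levels, Adcy9 was at -0.20. With cluster 11 counted as interdental- or inner-sulcus-like, also chosen after seeing the data, that class stood at 103 CPM for Hdac3 and 4.38 for Adcy3, and 0 of its genes were past either threshold. Apart from the single cells named, the cause was not tested. Scaling by the median of gene ratios moved every ratio by 0.03, so its 57 class ratios and 25 library values count as unmoved. At Leiden resolution 0.5, 16 of 60 class levels moved. The alternative with all deposited barcodes was not run for class ratios, since removed barcodes have no class. Adcy3 and Adcy6, with 132 to 290 UMIs a library, have intervals too wide to show small differences.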
